A study of Mus musculus with 2 samples.

Results

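Mir221 and Mir222 are microRNA genes that lie next to each other on the mouse X chromosome. They were taken as the rows of the count tables whose Ensembl identifier carries the symbol Mir221 or Mir222 in the GENCODE annotation, and both were found, 2 genes of the 1973 listed. The libraries came from midbrain of healthy B6NCrl mouse embryos at embryonic day 12.5, with male and female embryos mixed and no treatment or second tissue. Replicate 1 pooled 120 embryos and replicate 2 pooled 88, so a difference between single embryos cannot be seen. Small RNA below 30 nucleotides was sequenced, and reads were counted per microRNA gene.

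A microRNA gene is transcribed into a longer RNA from which a hairpin is cut, and 1 or both arms of the hairpin become the mature microRNA. The mature microRNA is loaded into an Argonaute protein and represses messenger RNAs that pair with its seed, bases 2 to 8 from the 5′ end. miR-221 and miR-222 are known as repressors of Cdkn1b and Cdkn1c, inhibitors of the cell cycle, and of Kit, the receptor for stem cell factor. They are known from endothelial and vascular smooth muscle cells, from blood progenitors, where they fall as red cells mature, and from glioma. Their messenger RNA targets were not measured here.

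The main mature arms, called 3p because they come from the 3′ side of the hairpin, are shown with the seed in capitals, since the seed is what makes these genes a family. The sequences are from RefSeq on GRCm38.p6, and both genes were matched by symbol. Mir1928 is shown because it was the only other gene in the RefSeq microRNA table with a mature sequence of the same seed.
miR-221-3p: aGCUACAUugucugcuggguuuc
miR-222-3p: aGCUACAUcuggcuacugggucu
miR-1928: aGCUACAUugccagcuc

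The 3p arms of miR-221 and miR-222 are both 23 bases long. They are identical over their first 8 bases, which hold the seed. Their next longest common stretch is 6 bases, CUGGGU, at positions 15 to 20 of miR-221-3p and 16 to 21 of miR-222-3p, counted from the 5′ end. In a global alignment 19 of 24 columns were identical. The common stretches thus lie at the 5′ end and towards the 3′ end of the arm.

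The hairpins are shown with the mature arms that RefSeq lists in capitals, to show how the arms sit in each hairpin.
Mir221: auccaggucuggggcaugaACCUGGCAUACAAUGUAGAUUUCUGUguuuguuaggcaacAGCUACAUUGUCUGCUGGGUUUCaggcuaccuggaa
Mir222: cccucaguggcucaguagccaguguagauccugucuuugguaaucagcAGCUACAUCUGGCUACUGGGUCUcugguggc

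For Mir221 the table lists both a 5p and a 3p arm. The counts are per gene, so they do not separate the arms. The hairpins of 95 and 79 bases have 62.5% identity in a global alignment, and their longest common stretch is 9 bases, at the start of the 3p arm. Folded with ViennaRNA, the Mir221 hairpin had a minimum free energy of -42.8 kcal/mol with 38 base pairs, and the Mir222 hairpin had -40.7 kcal/mol with 28. Among the hairpins of the 327 quantified genes matched in RefSeq, the median was -37.1 kcal/mol. Per base, 42.5% of those hairpins had a lower energy than Mir221 and 16.5% had a lower energy than Mir222.

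Reads that aligned to several places were assigned to no gene, so it matters whether another hairpin holds the same sequence. Against 1004 other RefSeq hairpins, on either strand, the longest exact match of Mir221 was 13 bases, with Mir7213. That of Mir222 was 12 bases, with Mir1251, Mir6957 and Mir7051. No other hairpin shared 20 bases with either gene. Other places in the genome were not searched.

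On mm10, Mir221 (ENSMUSG00000065422.1) lies on the minus strand at chrX:19146294-19146388. Mir222 (ENSMUSG00000065471.1) lies at chrX:19146893-19146971 on the same strand, so Mir222 comes first in the direction of transcription. A gap of 504 bases separates the hairpins. Neither overlaps another gene in GENCODE release M21, so both are intergenic there. The nearest annotated gene is the non-coding Gm14636, also on the minus strand and 10.009 kb upstream. The nearest protein-coding genes are Tex13c3, 332.4 kb upstream, and 4930578C19Rik, 684.9 kb downstream.

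**Figure D1:**
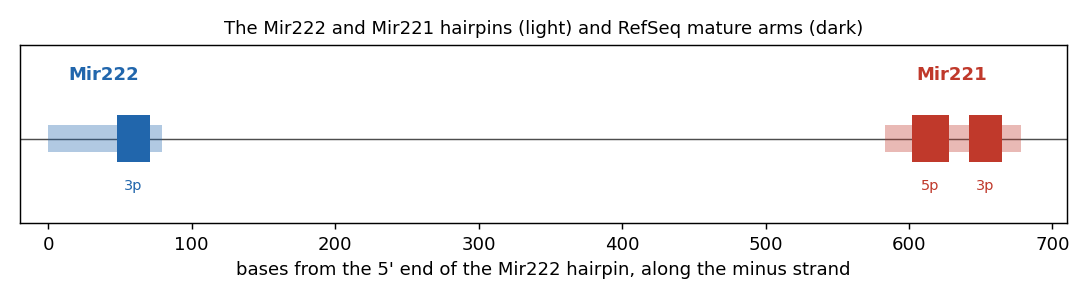
Map of the pair along the minus strand, in bases from the 5′ end of the Mir222 hairpin. Light bars are the hairpins and dark bars the mature arms in RefSeq; the hairpins are 504 bases apart.

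Replicate 1 held 4629302 reads assigned to a microRNA gene on its own strand, and replicate 2 held 2805487. Levels are given as CPM, counts per 1000000 of these assigned reads. Genes with 10 or more counts in each library are called quantified, and 380 genes reached this, Mir221 and Mir222 among them. A count of 0 allows up to 3 counts, which is 0.648 CPM in replicate 1 and 1.07 CPM in replicate 2. Among midbrain and cell type markers, Mir137 and Mir153, microRNAs of neurons, stood at 3894 ± 467 CPM and 3399 ± 159 CPM (SD, n = 2). The other 8 brain markers found were far lower. Mir9-3, Mir135a-2, Mir128-1 and Mir128-2 stood at 281, 245, 222 and 96.3 CPM. The 3 copies of neuronal Mir124 stood at 14.6 CPM for Mir124a-2, 5.37 CPM for Mir124a-3 and 3.56 CPM for Mir124a-1, and Mir9-2 stood at 3.80 CPM. Reads that aligned to several copies are not in these values. Endothelial Mir126a stood at 24839 ± 1986 CPM and mural Mir143 at 9818 ± 2169 CPM. Mir145a, also a mural marker, stood far lower at 140 ± 10.5 CPM, and Mir145b was at 0 in both libraries. Fewer cells of a type and less RNA per cell cannot be told apart in such tissue libraries.

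Both microRNAs were detected in both midbrain pools at moderate levels. Mir221 had 1227 counts in replicate 1, or 265 CPM (95% Wilson interval 251 to 280). In replicate 2 it had 545 counts, or 194 CPM (179 to 211). Replicate 1 was the higher library, and the intervals of the libraries did not overlap.

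Mir222 had 495 counts in replicate 1, or 107 CPM (95% Wilson interval 97.9 to 117). In replicate 2 it had 324 counts, or 115 CPM (104 to 129). Here replicate 2 was slightly higher, and the intervals overlapped.

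The mean level was 230 ± 50.1 CPM for Mir221 and 111 ± 6.05 CPM for Mir222 (SD, n = 2). Mir221 was above Mir222 in both libraries, and the ranges of the 2 genes did not overlap. By mean CPM, Mir221 ranked 172 and Mir222 ranked 214 of all genes. Mir221 ranked 169 in replicate 1 and 180 in replicate 2, and Mir222 ranked 215 and 212. The median level of the quantified genes was 148 CPM, so Mir221 stood above it and Mir222 below it. Each read stands for 1 small RNA fragment, so these levels need no correction for gene length, and differences in cloning efficiency between sequences were not tested. No read lay on the opposite strand of either gene in either library.

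**Figure D2:**
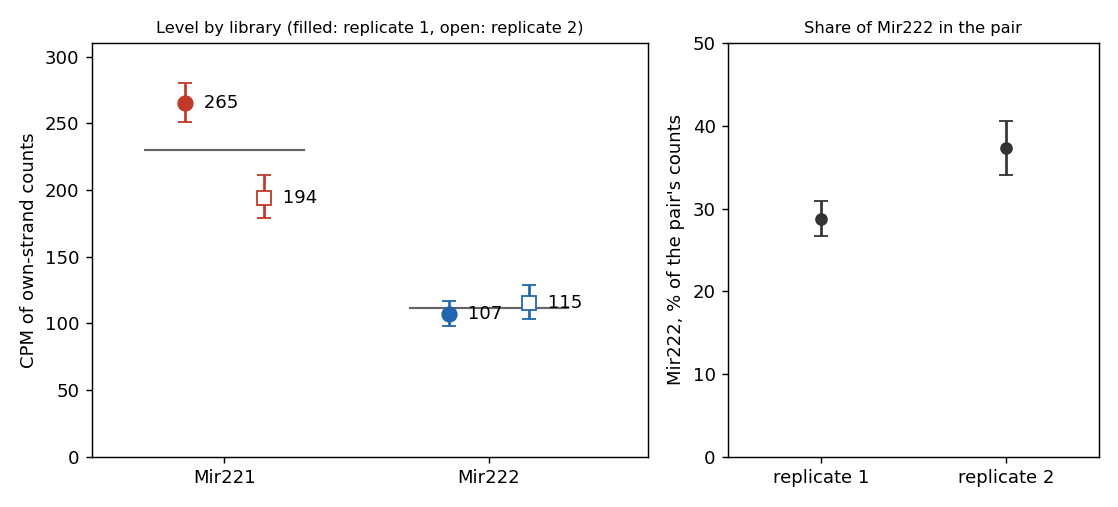
Left, CPM of own-strand counts for Mir221 and Mir222 in replicate 1 (filled) and replicate 2 (open), with 95% Wilson intervals and the mean as a line. Right, Mir222 as a percentage of the counts of the pair, with 95% Wilson intervals: 28.7% in replicate 1 and 37.3% in replicate 2.

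In the order of levels, the neighbours of Mir221 were Mir700 at 238 ± 10.3 CPM and Mir3071 at 229 ± 30.1 CPM. The neighbours of Mir222 were Mir1981 at 114 ± 10.6 CPM and Mir3102 at 111 ± 3.72 CPM (SD, n = 2). These 4 genes were picked as the nearest in mean level, so their closeness to the members follows from the choice.

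As a seed family, the pair summed to 372 CPM in replicate 1 and 310 CPM in replicate 2, a mean of 341 ± 44.0 CPM (SD, n = 2). The third gene of the seed, Mir1928 (ENSMUSG00000087820.1), on chromosome 1, had 0 counts on both strands in both libraries. Its level was thus at most 0.648 CPM in replicate 1 and 1.07 CPM in replicate 2 among assigned reads. Every assigned read of these genes came from Mir221 or Mir222. The sums are of gene counts, so they include any reads of the 5p arm of Mir221, which has another seed.

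The replicates were set against each other gene by gene. Fisher's exact test, two-sided, compared the reads of a gene with the remaining assigned reads of each library. P-values were adjusted by the Benjamini-Hochberg method over the 380 quantified genes. The test sets the difference of these 2 libraries against counting noise and compares no conditions. A gene was called at an adjusted p under 0.05.

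Of the 2 members, 1 was called different between the libraries, and 54.2% of all quantified genes were called. Mir221 was lower in replicate 2, with a log2 ratio of replicate 2 over replicate 1 of -0.45 ± 0.07 (counting SE; adjusted p = 2.6e-09, Fisher's exact test), or 1.36-fold higher in replicate 1. Of the quantified genes, 27.1% were called lower in replicate 2 and as many, 27.1%, higher. Mir222 was not called, with a log2 ratio of 0.11 ± 0.10 (adjusted p = 0.38, Fisher's exact test). The 95% interval of that log2 ratio, from -0.09 to 0.31, leaves room for a small difference in either direction.

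A larger difference than that of Mir221 was seen for 89 quantified genes, or 23.4% of them, in absolute log2 ratio. For Mir222 the number was 285, or 75% of them. Among the 72 other genes within 2-fold of the mean level of Mir221, the median absolute log2 ratio was 0.21 and 13 exceeded Mir221. Of these 72, 61.1% were called, 24 lower and 20 higher in replicate 2, so a call was the more frequent case at this level. Among the 79 other genes within 2-fold of Mir222, the median was 0.24 and 61 exceeded Mir222. Of these 79, 53.2% were called, 20 lower and 22 higher. The SD over the replicates was 21.8% of the mean for Mir221 and 5.44% for Mir222. The biological coefficient of variation over the quantified genes, the replicate spread beyond counting noise, was 20.4%.

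**Figure D3:**
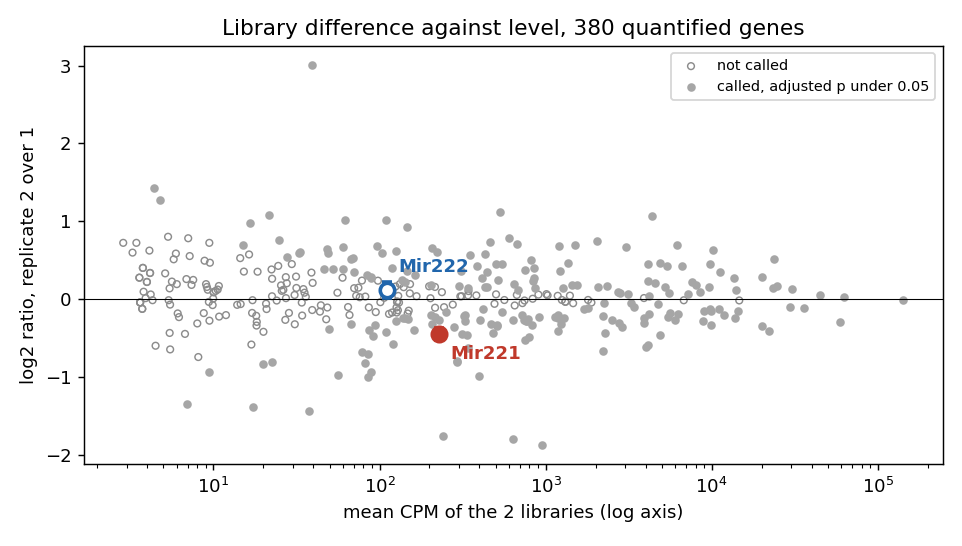
Log2 ratio of replicate 2 over replicate 1 against mean CPM (log axis) for the 380 quantified genes, filled where called. Mir221 (red, -0.45) and Mir222 (blue, 0.11) carry bars of 1 counting SE, mostly hidden by the markers; Mir221 lies below 0 and Mir222 at the level of many genes that were not called.

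Against counting noise alone, the ratio of the pair differed between the libraries. Mir222 made up 28.7% of the pair's 1722 counts in replicate 1 (95% Wilson interval 26.7 to 30.9%). In replicate 2 it made up 37.3% of 869 counts (34.1 to 40.5%). For each Mir222 read there were 2.48 Mir221 reads in replicate 1 and 1.68 in replicate 2. The share of Mir222 was 8.54 percentage points higher in replicate 2 (95% interval 4.70 to 12.4). These intervals leave out the spread between replicates, so they do not show whether the shift exceeds it.

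Whether such a shift is common was checked over adjacent microRNA genes on the same strand within 10 kb of each other, with both genes quantified, which gave 97 pairs. Fisher's exact test on the counts of each pair, adjusted over the 97 pairs, called the share different between the libraries for Mir221 and Mir222 (adjusted p = 3.8e-05). It did so for 57.7% of the pairs, so a shift in share was the more frequent case. The log2 ratios of Mir221 and Mir222 differed by 0.56, against a median of 0.26 over the pairs. A larger difference was seen in 21 of the 97 pairs. In 39 pairs, this one included, 1 gene was called between the libraries and the other was not. Both were called the same way in 30 pairs, in opposite directions in 17, and neither was called in 11.

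In level, Mir221 and Mir222 were more alike than most adjacent genes. Their mean levels differed by 1.04 on the log2(CPM + 1) scale, against a median of 2.81 over the 97 pairs, and 19 pairs were closer. The closest were Mir421 and Mir374b, with a difference of 0.010, Mir667 and Mir376c, with 0.048, and Mir194-2 and Mir192, with 0.17. The farthest apart were Mir411 and Mir1197, with 10.06, Mir99a and Mirlet7c-1, with 9.92, and Mir20a and Mir19b-1, with 9.27. Pairs of 1 cluster share genes and are not independent of each other. The counts of genes with copies elsewhere, such as Mirlet7c-1, hold only the reads that aligned to 1 place.

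**Figure D4:**
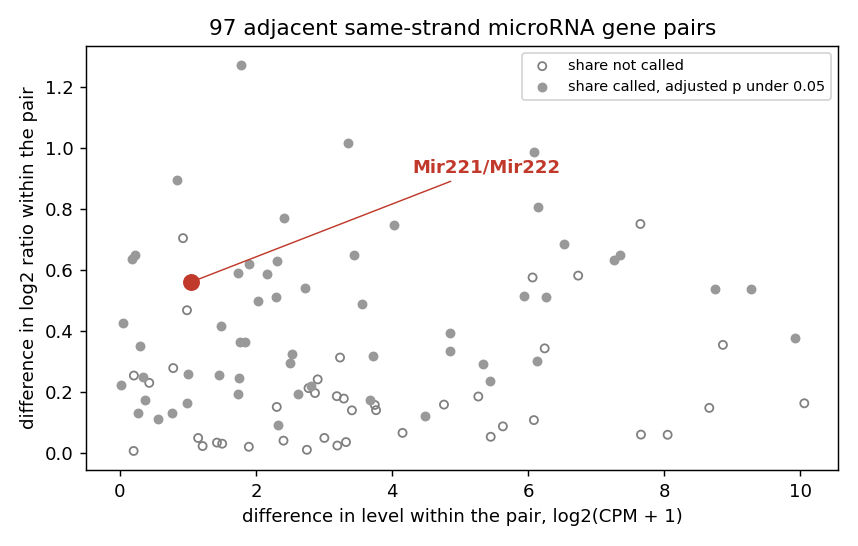
Each point is 1 of 97 pairs of adjacent same-strand microRNA genes: the difference in mean level on the log2(CPM + 1) scale (horizontal) against the difference in log2 ratio between the libraries (vertical), filled where the share was called. Mir221 and Mir222 (red) lie at 1.04 and 0.56, to the left of the median level difference of 2.81 and above the median ratio difference of 0.26.

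The genes most like each member were taken by the distance of log2(CPM + 1) over the 2 libraries, which measures level more than pattern. Nearest to Mir221 were Mir3071 at a distance of 0.13, Mir877 at 0.19, Mir138-2 at 0.21, Mir874 at 0.26 and Mir155 at 0.27. Mir155, known from activated leukocytes, had 265 CPM in replicate 1 and 235 CPM in replicate 2. All 5 had a lower level in replicate 2, and 4 of them were called. Over all quantified genes, 54.2% were called and 27.1% were called lower. The distance uses the values of both libraries, so it favours genes that differ in the same direction. The shared direction is thus no separate result. Mir874 was not called, with a log2 ratio of -0.11.

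Nearest to Mir222 were Mir3102 at 0.030, Mir450b at 0.11, Mir495 at 0.22, Mir1981 at 0.22 and Mir493 at 0.23. Of these, Mir493 was called, higher in replicate 2, with a log2 ratio of 0.40. Over all quantified genes, 27.1% were called higher. These genes too were chosen on the values of both libraries. Mir450b, also on the X chromosome, had 106 CPM in replicate 1 and 107 CPM in replicate 2. The distance between Mir221 and Mir222 themselves was 1.5, so neither was among the 5 genes most like the other.

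On the X chromosome, 120 microRNA genes were listed and 41 were quantified. Of these 41, 14 were called higher in replicate 2, 11 lower and 16 were not called, with a median log2 ratio of 0.06. Over all quantified genes, 27.1% were called in each direction and the median was 0.04, so the X-linked genes stood near that background. By mean CPM, Mir221 came 25th and Mir222 30th of the chromosome's genes. The highest were Mir322 at 13585 ± 1795 CPM, Mir652 at 6603 ± 1363 CPM, Mir361 at 4115 ± 471 CPM and Mir106a at 4027 ± 1197 CPM (SD, n = 2). The nearest quantified microRNA gene on the downstream side was Mir1198, 11339 kb away, with a log2 ratio of 0.39 ± 0.15 (counting SE). On the upstream side it was Mir363, 33595 kb away, with -0.26 ± 0.02.

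**Figure D5:**
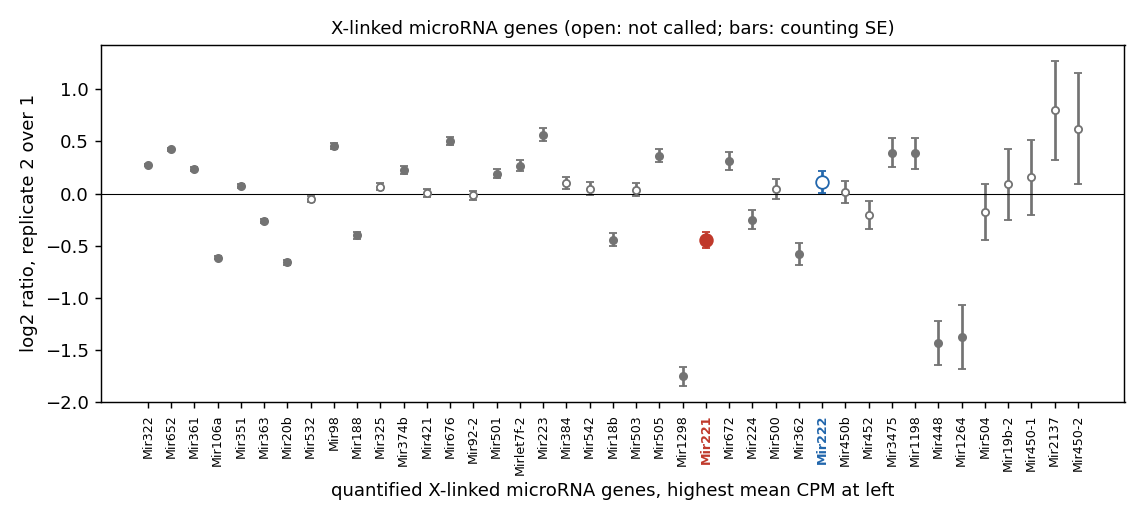
Log2 ratio of replicate 2 over replicate 1 for the 41 quantified X-linked microRNA genes, ordered by mean CPM with the highest at left; bars are 1 counting SE and open points were not called. Mir221 (red) is among the 11 genes called lower and Mir222 (blue) among the 16 not called.

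Mir221 and Mir222 are known from blood vessels, so a list of other vascular microRNAs is given beside them. Of 12 symbols 10 were listed and 9 quantified, of which 5 were called higher in replicate 2, 1 lower and 3 were not called (median log2 ratio 0.15). Over all quantified genes, 27.1% were called in each direction, with a median log2 ratio of 0.04. That share is not matched in counts, since the list's median level was 6164 CPM, against 148 CPM. The 3 genes not called were its lowest quantified, Mir145a at 140, Mir27a at 86.2 and Mir24-2 at 74.6 CPM. Mir130a, at 36147 ± 1967 CPM, was the gene called lower, with a log2 ratio of -0.11. Mir126a, which guards vessel integrity, had 0.16, Mir23b had 0.63 and Mir143, of smooth muscle and pericytes, had 0.45. The list summed to 83104 CPM in replicate 1 and 93630 CPM in replicate 2. The list's sum was thus higher in replicate 2. The pair's sum was lower there through Mir221 alone, while Mir222 went from 107 to 115 CPM and was not called. Neither sum stands for each of its members.

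MicroRNAs known to repress Cdkn1a, another inhibitor of the cell cycle, form a list of 6 genes, Mir17, Mir20a, Mir20b, Mir93, Mir106a and Mir106b. All 6 were quantified and called lower in replicate 2, with a median log2 ratio of -0.38. Over all quantified genes, 27.1% were called lower and the median was 0.04. That share is no matched background, since the list's median level was 17016 CPM, against 148 CPM over all quantified genes. Calls depend on counts: of genes with at least 100 counts in both libraries, 72.6% were called in either direction. Mir17, the highest at 59214 ± 8579 CPM, had -0.30, Mir20a had -0.41, Mir93 had -0.35 and Mir106b had -0.24. The list summed to 135660 CPM in replicate 1 and 107469 CPM in replicate 2. Its genes come from 3 related clusters and are not independent of each other.

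MicroRNAs known to restrain the cell cycle, mainly of the let-7, Mir34 and Mir15 families, had 16 of 19 symbols listed, all 16 quantified. Of these, 12 were called higher in replicate 2, 2 lower and 2 were not called, with a median log2 ratio of 0.28. Over all quantified genes, 27.1% were called higher and the median log2 ratio was 0.04. The list's median level was 464 CPM, against 148 CPM over all quantified genes, so the shares called are not matched in counts. Mirlet7g had 0.28, Mirlet7i had 0.35, Mir15a had 0.08 and Mir16-1 had -0.05. The Mir34 genes were not among the higher calls: Mir34a was called lower, with a log2 ratio of -0.68, and Mir34b and Mir34c were not called. Several genes of the list share a cluster, such as Mir15a with Mir16-1 and Mir98 with Mirlet7f-2, and are not independent of each other.

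Kit acts in blood progenitors, so erythroid and leukocyte microRNAs were also counted. Over all quantified genes, 27.1% were called in each direction. Of the 3 erythroid genes listed, Mir451a, at 373 CPM in replicate 1 and 212 CPM in replicate 2, was called lower. Mir486 was called higher and Mir144 was not called, at 25.7 and 29.6 CPM. The erythroid genes summed to 413 CPM in replicate 1 and 271 CPM in replicate 2, and most of each sum was Mir451a. Their median log2 ratio was 0.20, against 0.04 over all quantified genes, so the sum does not stand for each member. Among leukocyte genes 4 were quantified. Mir155 was called lower in replicate 2, while higher calls went to Mir150, Mir146 and Mir223. The listed leukocyte genes summed to 609 CPM in replicate 1 and 770 CPM in replicate 2. The part of blood, vessel or progenitor RNA in the difference of Mir221 was not tested.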

How the data were processed

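MicroRNA counts of 2 midbrain libraries were analysed. The deposited files hold raw read counts per gene on either strand, the gene's own strand and the opposite strand; assembly mm10 and annotation M4 are given per the deposited read-me files, while aligner and counter were not given in the sources used. The strand of each column was taken from the column order. Own-strand counts were used, 97.6% and 97.5% of those on either strand. Rows that name no gene, 56.9% and 58.2% of reads, stayed out of library sizes and tests; reads aligning to several places alone were 33.4% of reads in each. Symbols and positions came from GENCODE M21, whose assembly GRCm38 is mm10 (1894 of 1973 identifiers matched).

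CPM, Fisher's exact tests (SciPy 1.17.1) with Benjamini-Hochberg adjustment (statsmodels 0.14.6), Wilson intervals and log2 ratios were computed from the counts. The Fisher test was tested on simulated counts that held counting noise only. The simulation had no further spread between replicates, so it does not show how the test behaves with the spread seen here. The 95% interval of a log2 ratio is 1.96 counting SE to each side, and that of the share difference combines the Wilson bounds. TMM factors and the coefficient of variation came from edgeR 4.0.16, size factors from DESeq2 1.42.0, and hairpin folds from ViennaRNA 2.7.2. Intervals and floors cover counting error only, since PCR reads are not independent molecules. With 1 group there was no contrast between conditions.

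The members and lists were chosen with earlier results of these data known. Named genes are the members, the same-seed genes, the 5 genes most like each member, up to 4 most abundant genes of each list, the nearest quantified X-linked microRNA genes and the 3 closest and 3 farthest adjacent pairs. The tests over all 97 pairs, the neighbours in level, the hairpin folds and the comparison with genes within 2-fold in level were added after values were seen, as was the naming of other genes: Mir20b and Mir106a, whose list has 6 members, the Mir34 genes, Mir98, Mirlet7f-2 and the brain markers below the 4 most abundant. Listed symbols not found in the annotated table were Mir126b, Mir24-1, Mir486a, Mir486b, Mir142, Mir497a, Mirlet7e, Mirlet7f-1 and Mir9-1, which were not analysed here. Of the 11 brain markers, 10 were found and 8 quantified. In replicate 2, 2 were higher by the test, 3 were lower and 3 were not called, beside 27.1% of all quantified genes in each direction.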

Additional observations from a re-analysis of the deposited data

How the results depend on the processing

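The call and direction of Mir221 and of Mir222 were the same with TMM factors, DESeq2 size factors, reads of either strand, no filter on low counts and at least 100 counts in both libraries. The log2 ratio of Mir221 ranged from -0.48 to -0.45 over these (adjusted p from 1.1e-10 to 5.2e-09, Fisher's exact test) and that of Mir222 from 0.08 to 0.11 (adjusted p from 0.32 to 0.60). The number of genes called was between 196 and 214, against 206, but the share called moved with the number tested: it was 54.2% of 380 genes, 26.7% of 746 with no filter and 72.6% of 270 at 100 counts. The share of 54.2% therefore belongs to the filter of 10 counts. Higher calls in replicate 2 made up 50% of the calls on plain totals and 44.3% after DESeq2 scaling.

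By its construction, the CPM scale moves with its denominator. Over all reads of a library, Mir221 stood at 97.7 and Mir222 at 47.2 per 1000000. With Mir99a, the most abundant gene, left out of the denominator, Mir221 stood at 268 CPM and Mir222 at 130 CPM. The levels without replicate 1 or without replicate 2 were 194 and 265 CPM for Mir221, 115 and 107 CPM for Mir222, and 37.3% and 28.7% for the share of Mir222 in the pair. Among the 65 adjacent pairs within 1 kb, Mir221 and Mir222 came 15th in closeness of level, and among the 97 within 10 kb they came 20th. No paired analysis was possible because the libraries form 1 group. With 2 libraries, the spread between pools rests on 1 difference per gene, and the 545 and 324 counts in replicate 2 limit the precision.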
